A study of Mus musculus with 4 samples.

Results

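The genes described here are 43 mitotic genes whose products run the spindle assembly checkpoint, attach chromosomes to the spindle, condense and separate chromosomes, and end mitosis. They were taken by gene symbol from a fixed list, and all 43 were found among the 47445 gene identifiers of the deposited tables. The rule reads no measured values, but the list was chosen with earlier results of these data known. RNA was measured in late 2-cell embryos of C57BL/6N mice, in 2 siUqcc3 libraries, from embryos given siRNA that targets Uqcc3, and in 2 control libraries. The product of Uqcc3 helps assemble respiratory complex III in mitochondria, and the study asked what its depletion does in early embryos. Per the labels' protocols, females were 8 weeks old, the siRNA was injected at 5 µM and 8 hpi (hours are written so in the labels), and a negative-control siRNA was injected likewise. The controls' treatment is nevertheless labelled "none", and they are called normal embryos in the study design, so it is uncertain whether they were injected. Only injected embryos of normal morphology were harvested, and no source used here says how many embryos went into each library. Library titles end differently in the groups, and if the endings mark a batch, batch and treatment cannot be told apart.

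In mitosis, kinetochores assemble on centromeric chromatin and bind spindle microtubules. Kinetochores without microtubules send a checkpoint signal that holds the anaphase-promoting complex in check. When the signal ends, Cdc20 activates that complex, securin and cyclin B are degraded, separase opens the cohesin rings, and the cell divides. The oocyte stores mRNAs of much of this machinery for the meiotic divisions and the first cleavages, and the 2-cell stage is when mouse embryos replace stored transcripts with their own. Many of these genes are regulated in dividing cells through the cell cycle genes homology region, a promoter motif with the letters TTTGAA near the start site, often with CCAAT boxes upstream that NF-Y binds.

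Promoter sequences were taken from RefSeq (build GRCm38.p6), as windows of 250 bases before to 50 bases after each start site. Of the 43 genes 36 had an entry, with 40 promoters, and Sgol1 was matched through its current symbol Sgo1. TTTGAA was searched on both strands (TTCAAA is its reverse complement), and it can share 1 base with CCAAT or its reverse complement ATTGG. At least 1 promoter of 23 of the 36 genes (63.9%) held TTTGAA on either strand, against 20.2% of all 27025 genes of the table. CCAAT was present in 26 of the 36 genes (72.2%), against 41.1% of all genes. Both motifs were present in 20 of the 36 genes (55.6%), against 7.97% of all genes. A match is a description of these letters in this window and not evidence of binding.

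The motif lay close to the start site. Of the 40 promoters of the mitotic genes 23 (57.5%) held it with its first base within 50 bases of the start site on either side, against 4.94% of all 32851 promoters. The windows below are 30 bases around the motif, 5′ to 3′ on the gene's strand, with TTTGAA or TTCAAA in capitals. The 5 genes shown first lay below both controls in both siUqcc3 libraries under every scaling tried, and Espl1 and Plk1 are shown because they stood far above both controls in siUqcc3 replicate 2 only.
Aurka: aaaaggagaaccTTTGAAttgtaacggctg
Bub3: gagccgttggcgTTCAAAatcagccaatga
Cenpa: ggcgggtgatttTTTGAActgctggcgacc
Fbxo5: ttgggcaccaaaTTCAAAgattttaaaagt
Racgap1: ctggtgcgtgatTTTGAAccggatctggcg
Espl1: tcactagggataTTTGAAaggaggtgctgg
Plk1: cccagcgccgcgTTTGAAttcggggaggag
In GRCm38.p6 these windows lie at chr2:172370521-172370550 (minus strand, Aurka), chr7:131560315-131560344 (plus, Bub3), chr5:30666890-30666919 (plus, Cenpa), chr10:5805445-5805474 (minus, Fbxo5) and chr15:99651634-99651663 (minus, Racgap1). Those of Espl1 and Plk1 lie at chr15:102296254-102296283 and chr7:122159453-122159482, both on the plus strand. The motif of Cenpa begins at base 17 and that of Racgap1 at base 6 after the start site, and that of Espl1 at base -27 before it. The motif in Bub3 is in reverse orientation and is followed within the same window by a CCAAT box.

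**Figure D1:**
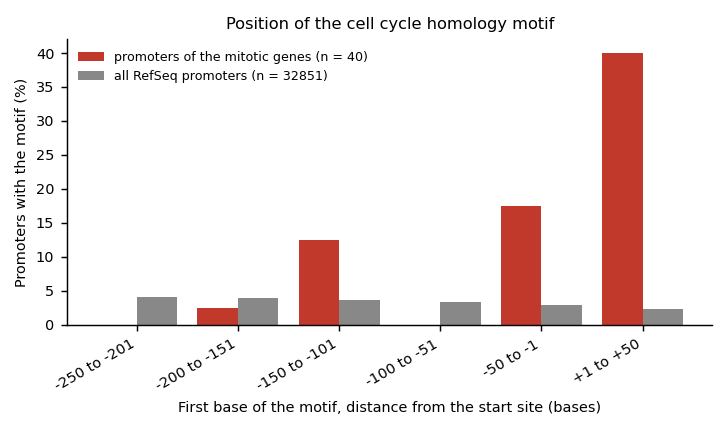
Share of promoters (percent, vertical axis) with TTTGAA or TTCAAA, by the distance of the motif's first base from the start site in bins of 50 bases (horizontal axis), for 40 promoters of the mitotic genes and all 32851 RefSeq promoters. Of the 40 promoters 16 held the motif at bases +1 to +50 and 7 at bases -50 to -1, against 2.25% and 2.82% of all promoters at these distances.

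The deposited bounds implied about 11700000 and 11800000 fragments in siUqcc3 replicates 1 and 2, and 16700000 and 18900000 in control replicates 1 and 2. The targeted gene Uqcc3 stood at 23.7 and 19.8 FPKM in siUqcc3 libraries and at 147 and 211 FPKM in controls (limma log2 difference -2.97, SE 0.63, adjusted p = 0.745). FPKM counts fragments per length of transcript and total of fragments. Genes with at least 1 FPKM numbered 12073 and 9771 with siUqcc3 and 12202 and 11818 in controls, and siUqcc3 replicate 2 stood apart from the other libraries. Over the 43 mitotic genes, log2 values of siUqcc3 replicate 2 correlated with the other libraries at Pearson's r of 0.773 to 0.806. The other 3 libraries correlated with each other at 0.948 to 0.959 (across genes, which are not independent replicates). Over all tested genes these ranges were 0.624 to 0.651 and 0.867 to 0.875. Results are therefore also given without siUqcc3 replicate 2. Of 13 markers of 2-cell embryos found, 12 reached 1 FPKM in all 4 libraries, and they summed to 1253 and 794 FPKM with siUqcc3 and 1627 and 2200.2 FPKM in controls. All 11 oocyte markers reached 1 FPKM, with sums of 2131 and 1786 FPKM with siUqcc3 and 2083 and 2526 FPKM in controls. Markers of cumulus and granulosa cells summed to 11.5 and 0.849 FPKM with siUqcc3 and 8.66 and 16.1 FPKM in controls over 10 genes. Of these, Amh, Fshr and Col1a2 stood at 0 in every library. Tnfaip6 reached 14.1 FPKM in control replicate 2, and Kitl 5.20 FPKM in control replicate 1. Sperm markers summed to 47.1 and 22.6 FPKM with siUqcc3 and 26.5 and 40.3 FPKM in controls, and blood markers to 36.0 and 9.52 FPKM with siUqcc3 and 35.1 and 34.5 FPKM in controls. Blastocyst markers, with Cdx2, Krt8 and Sox17 at 0 in every library, summed to 8.01 and 3.28 FPKM with siUqcc3 and 0.256 and 10.8 FPKM in controls. The part of these markers in the results was not tested. In whole-embryo RNA, fewer cells and less RNA per cell cannot be told apart.

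All 43 genes were expressed, and 42 of them reached 1 FPKM in all 4 libraries. Together they made up 0.658% and 0.604% of summed FPKM in siUqcc3 replicates 1 and 2, and 0.823% and 0.753% in control replicates 1 and 2. The highest was Pttg1, which encodes securin, the inhibitor of separase, at 1226 and 428 FPKM with siUqcc3 and 1261 and 1600.4 FPKM in controls. Birc5, Mad2l1, Cenpa, Spc25, Prc1, Bub3 and Cdca8 followed in the mean over the controls, at 714 to 164 FPKM. Mad1l1 and the phosphatase genes Cdc25a and Cdc25b were the lowest by the mean over the controls, with control values of 1.67 to 3.68 FPKM. Median levels over the 43 genes were 20.6 and 35.6 FPKM with siUqcc3 and 32.6 and 26.2 FPKM in controls, so the groups overlapped in this summary.

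**Figure D2:**
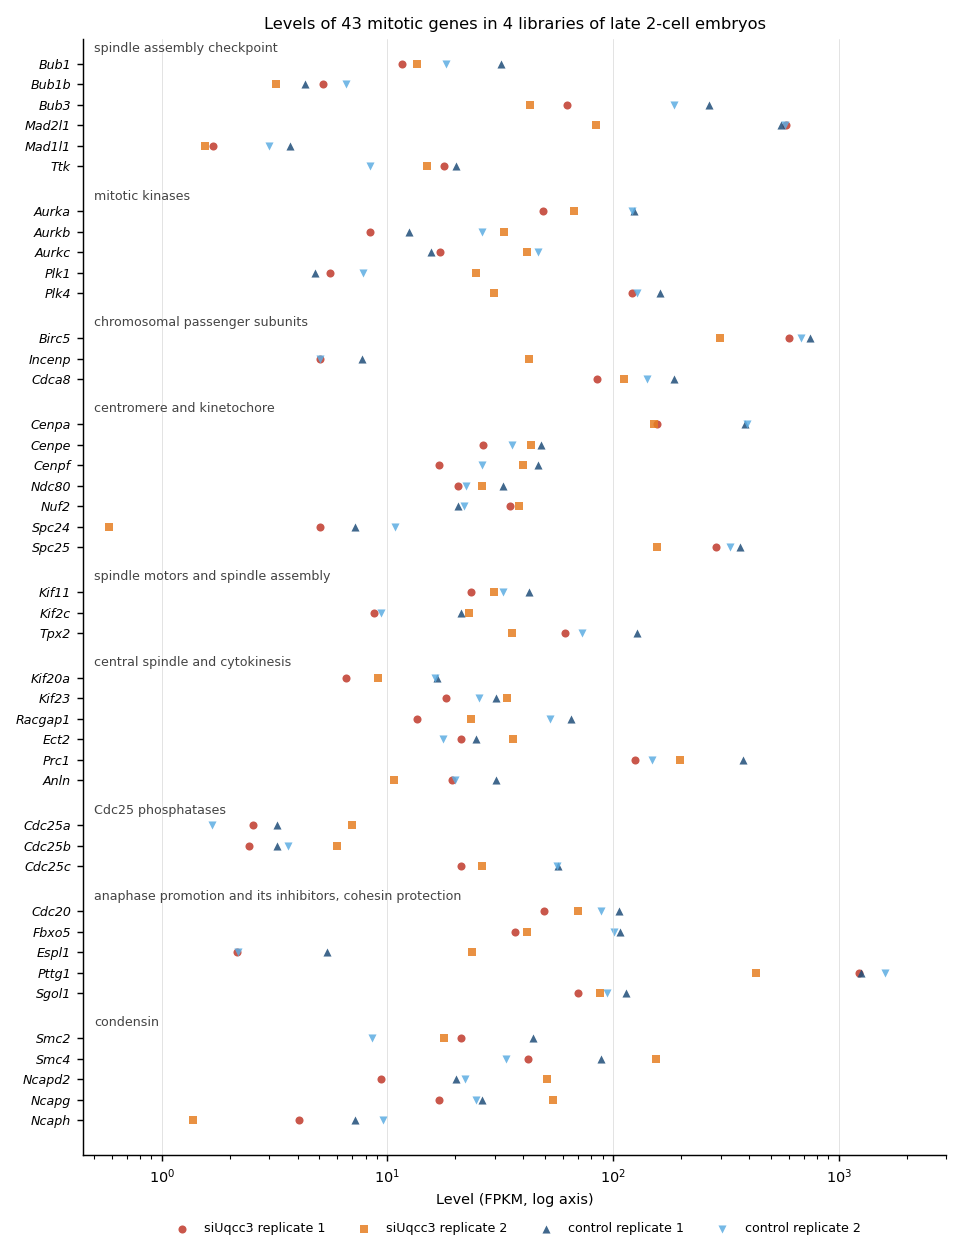
Level of each of the 43 mitotic genes (FPKM, logarithmic horizontal axis) in siUqcc3 replicates 1 and 2 and control replicates 1 and 2, 1 point per library, with genes grouped by role. Levels run from 0.586 FPKM (Spc24 in siUqcc3 replicate 2) to 1600.4 FPKM (Pttg1 in control replicate 2).

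At an adjusted p of 0.05 limma called 0 of the 43 mitotic genes and 0% of the 12390 tested genes (smallest adjusted p = 0.745 among the 43 genes, two-sided, Benjamini-Hochberg over all genes tested). At an unadjusted p under 0.05 there were 3 of the 43 genes, Bub3, Racgap1 and Cenpa, all lower with siUqcc3. Of all tested genes 5.96% reached that level, 5.21% lower and 0.743% higher. The siUqcc3 values of 21 of the 43 genes (48.8%) both lay below both control values, against 30.0% of all tested genes, and 1 gene (2.33%), Nuf2, lay above, against 8.60% of all tested genes. The deposited bounds, which do not cover the spread between libraries, put 14 of the 43 genes below both controls, against 17.3% of all tested genes. They put 1 of the 43, Nuf2, above, against 2.89% of all tested genes. The median log2 difference was -0.48 over the 43 genes and -0.39 over all tested genes.

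Scaling between libraries changed these counts. With cyclic loess, quantile normalization, median-of-ratios scaling or FPKM rescaled to TPM, the median of all tested genes moved to between -0.093 and 0.034. The count of mitotic genes below both controls then stood at 11, 10, 12 and 11 of 43 in this order, against 18.5%, 18.7%, 19.6% and 20.6% of all tested genes. These 8 stayed below both controls under each of the 4 scalings: Bub3, Aurka, Cenpa, Kif20a, Racgap1, Cdc25c, Fbxo5 and Ncaph. The share of all tested genes that did so under all 4 was not counted, so the 8 of 43 have no background to be set against. Nuf2 stayed above under each of the 4. The other 13 genes below both controls lost that position under at least 1 scaling. Other pseudocounts, filters and priors cannot change the order of a gene's values, so they do not bear on these positions.

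**Figure D3:**
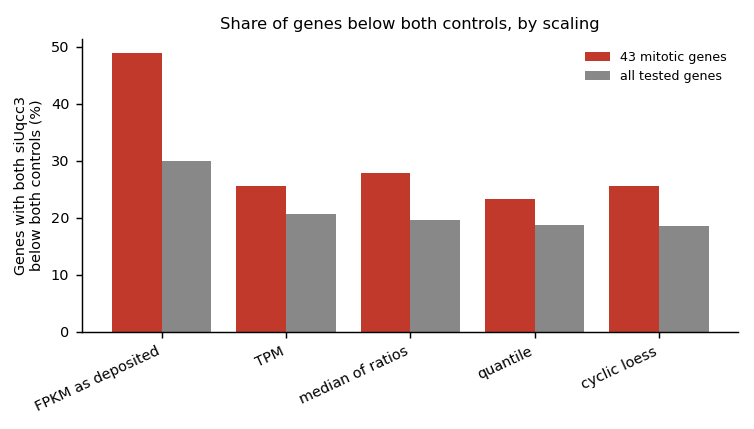
Percent of genes (vertical axis, from 0) with both siUqcc3 libraries below both controls, for the 43 mitotic genes and for all tested genes, with FPKM as deposited and after 4 scalings between libraries. After scaling 10 to 12 of the 43 genes lie below both controls, against 21 of 43 as deposited.

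Checkpoint genes differed among themselves. As deposited, 3 of the 6 lay below both controls (30.0% of all tested genes), and 2 or 3 after scaling (18.5% to 20.6%). Bub3, whose product docks Bub1 and BubR1 on kinetochores, stood at 62.3 and 42.6 FPKM with siUqcc3 and at 266 and 187 FPKM in controls. Its mean was 52.5 ± 13.9 FPKM with siUqcc3 and 227 ± 56.2 FPKM in controls (SD, n = 2 each), 23.2% of the control mean. Both siUqcc3 libraries lay far below both controls, and the gene (ENSMUSG00000066979.6, mm10 chromosome 7 from 131560222 to 131571895) ranked first of the 43 by p (limma log2 difference -2.09, SE 0.62, adjusted p = 0.745). Without siUqcc3 replicate 1, which sets siUqcc3 replicate 2 alone against the controls, it passed in limma (adjusted p = 0.0333), where 11.9% of all tested genes passed and the spread came from the 2 controls alone.

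Bub1, the checkpoint kinase that marks centromeric histone H2A, stood at 11.6 and 13.5 FPKM with siUqcc3 and 31.8 and 18.1 FPKM in controls. Mad1l1, which recruits Mad2 to kinetochores, stood at 1.68 and 1.56 FPKM with siUqcc3 and 3.68 and 2.98 FPKM in controls, on 11 to 56 implied fragments a library. The groups of both genes were apart, by less than the difference between the controls in Bub1. Mad2l1, which encodes Mad2, stood at 583 and 84.2 FPKM with siUqcc3 and 555 and 575 FPKM in controls. Only siUqcc3 replicate 2 was low there, and the log2 difference was 0.045 in replicate 1 and -2.73 in replicate 2. A processed pseudogene, Gm42430, matches part of the Mad2l1 transcript (95.4% identity over 454 bases) and was listed at 27.6 and 0.164 FPKM with siUqcc3 and 23.0 and 23.7 FPKM in controls. Ttk, the kinase that starts checkpoint signalling, stood at 17.8 and 15.0 FPKM with siUqcc3 and 20.1 and 8.38 FPKM in controls, with overlapping groups. Bub1b, which encodes BubR1, lay between 3.22 and 6.57 FPKM in all 4 libraries with overlapping groups.

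Of the 5 mitotic kinases, 2 lay below both controls as deposited, against 30.0% of all tested genes. After each of the 4 scalings 1 did, against 18.5% to 20.6%. Aurka, which drives centrosome maturation and spindle assembly, stood at 49.1 and 67.5 FPKM with siUqcc3 and 123 and 121 FPKM in controls. Both siUqcc3 libraries lay below both controls (limma log2 difference -1.07, SE 0.61, adjusted p = 0.745), and after scaling the difference lay between -0.69 and -0.39. Aurkb, the kinase of the chromosomal passenger complex, stood at 8.40 and 32.9 FPKM with siUqcc3 and 12.5 and 26.2 FPKM in controls. Aurkc, its germline relative, which serves oocyte meiosis, stood at 17.1 and 41.7 FPKM with siUqcc3 and 15.5 and 46.7 FPKM in controls. In both of these genes the libraries of a group differed more than the group means, and the groups overlapped. Aurkc values are uncertain, since the pseudogene Gm12463 matches 849 bases of its transcript at 99.2% identity and was listed at 15.4 and 3.65 FPKM with siUqcc3 and 24.6 and 52.9 FPKM in controls. Aurkc stood above Aurkb in each of the 4 libraries, by 2.03 and 1.27 times with siUqcc3 and 1.25 and 1.78 times in controls (FPKM, per length).

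Plk1, the kinase of mitotic entry and kinetochore attachment, stood at 5.57 and 24.6 FPKM with siUqcc3 and 4.76 and 7.80 FPKM in controls. Plk4, the kinase that starts centriole duplication, stood at 122 and 29.6 FPKM with siUqcc3 and 162 and 128 FPKM in controls. The 2 Polo-like kinases thus stood apart from the controls in siUqcc3 replicate 2, in opposite directions, and near them in replicate 1. Plk4 did not pass over all libraries (limma log2 difference -1.24, SE 0.79, adjusted p = 0.750), and the difference was -0.24 in siUqcc3 replicate 1. With siUqcc3 replicate 2 as the only siUqcc3 library it passed in limma (adjusted p = 0.0354), as did 11.9% of all tested genes, and with replicate 1 as the only one it did not (limma adjusted p = 0.904). The spread in both fits is that of the 2 controls.

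The chromosomal passenger complex corrects faulty attachments and moves to the midzone in anaphase. Here 2 of 3 subunits lay below both controls as deposited (30.0% of all tested genes) and 0 or 1 after scaling (18.5% to 20.6%). Birc5, which encodes survivin, stood at 605 and 299 FPKM with siUqcc3 and 746 and 682 FPKM in controls. Cdca8, which encodes borealin, stood at 84.8 and 112 FPKM with siUqcc3 and 186 and 141 FPKM in controls. Incenp, the scaffold that activates Aurora B, stood at 5.04 and 42.3 FPKM with siUqcc3 and 7.70 and 5.04 FPKM in controls. The 2 genes stood on opposite sides of the controls in siUqcc3 replicate 2, which was low in Birc5 (log2 difference -1.25) and high in Incenp (2.58). With cyclic loess the fitted differences of Birc5 and Cdca8 were 0.15 and 0.021, above 0.

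**Figure D4:**
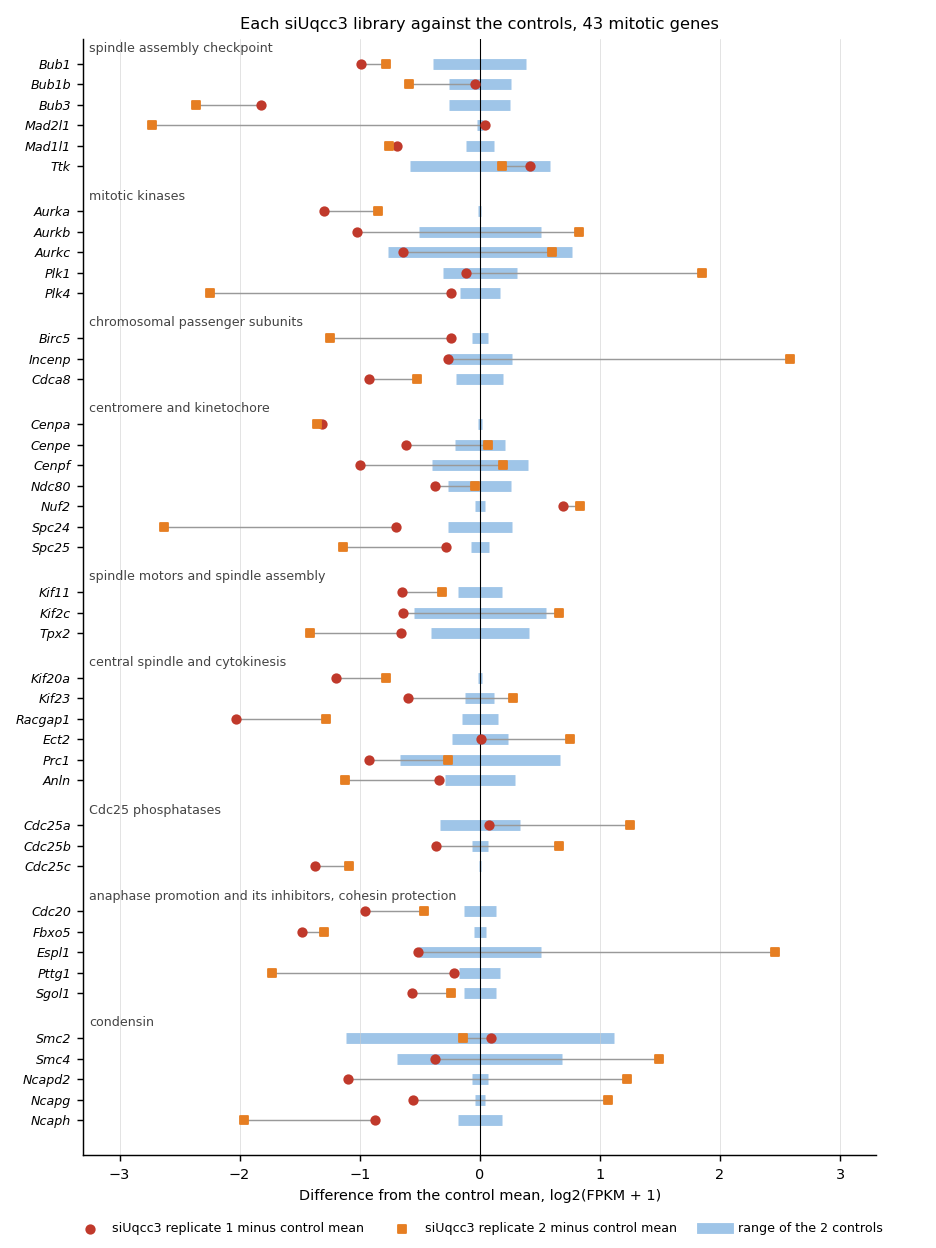
Difference of siUqcc3 replicate 1 (circle) and replicate 2 (square) from the control mean for each of the 43 mitotic genes, log2(FPKM + 1) as deposited, with the range of the 2 controls as a bar. In Bub3, Racgap1, Cenpa, Fbxo5 and Cdc25c both points lie below -1, and in Incenp and Espl1 replicate 2 lies above 2, at 2.58 and 2.45, while replicate 1 lies at -0.26 and -0.51. Scaling between libraries raises most values, and the text gives the genes whose position changes.

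Of the 7 centromere and kinetochore genes, 3 lay below both controls as deposited, against 30.0% of all tested genes. After scaling 1 or 2 did, against 18.5% to 20.6%. Cenpa, the histone H3 variant that marks centromeres, stood at 156 and 152 FPKM with siUqcc3 and 384 and 394 FPKM in controls. The means were 154 ± 3.05 FPKM with siUqcc3 and 389 ± 7.16 FPKM in controls (SD, n = 2 each), 39.5% of the control mean. The replicates of each group stood close together and the groups were far apart, yet the gene (ENSMUSG00000029177.9, mm10 chromosome 5 from 30666777 to 30674830) did not pass over all genes (limma log2 difference -1.33, SE 0.57, adjusted p = 0.745). After scaling its difference lay between -0.95 and -0.51. The kinesin gene Cenpe, which moves chromosomes to the spindle equator, stood at 26.6 and 43.2 FPKM with siUqcc3 and 47.9 and 35.6 FPKM in controls. Cenpf, a kinetochore corona protein, stood at 17.0 and 40.02 FPKM with siUqcc3 and 46.5 and 26.2 FPKM in controls. The groups overlapped in both.

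The 4 genes of the Ndc80 complex, which links kinetochores to microtubules, differed among themselves. Nuf2 stood at 34.8 and 38.5 FPKM with siUqcc3 and 20.6 and 21.8 FPKM in controls, and was the only one of the 43 genes with both siUqcc3 libraries above both controls (limma log2 difference 0.76, SE 0.69, adjusted p = 0.805). Its partner Ndc80 stood at 20.6 and 26.3 FPKM with siUqcc3 and 32.6 and 22.4 FPKM in controls, with overlapping groups. The transcript 2700099C18Rik matches 303 bases of Ndc80 at 95.05% identity. It was listed at 55.03 and 30.45 FPKM with siUqcc3 and 56.34 and 43.82 FPKM in controls. Spc25 stood at 285 and 157 FPKM with siUqcc3 and 366 and 330.4 FPKM in controls. Spc24, which dimerizes with Spc25, stood at 5.05 and 0.586 FPKM with siUqcc3 and 7.15 and 10.8 FPKM in controls (limma log2 difference -1.66, SE 1.07, adjusted p = 0.750). Both siUqcc3 values of Spc24 lay below both controls, and that of siUqcc3 replicate 2 rests on 9 implied fragments.

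Among spindle motors and assembly factors, 2 of 3 genes lay below both controls as deposited, against 30.0% of all tested genes. After scaling 0 or 1 did, against 18.5% to 20.6%. Kif11, the kinesin that separates spindle poles, stood at 23.4 and 29.7 FPKM with siUqcc3 and 42.4 and 32.6 FPKM in controls. Tpx2, which activates Aurora A on the spindle, stood at 61.03 and 35.6 FPKM with siUqcc3 and 128 and 72.6 FPKM in controls. The groups of both were apart, by less than the difference between the controls. Kif2c, a kinesin that depolymerizes microtubules at centromeres, stood at 8.75 and 23.0 FPKM with siUqcc3 and 21.3 and 9.41 FPKM in controls, with overlapping groups.

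Central spindle and cytokinesis genes lay below both controls in 3 of 6 cases as deposited, against 30.0% of all tested genes. After each of the 4 scalings 2 of 6 did, against 18.5% to 20.6%. Racgap1, the GTPase-activating subunit of centralspindlin, stood at 13.6 and 23.4 FPKM with siUqcc3 and 64.8 and 52.7 FPKM in controls. Its means were 18.5 ± 6.96 FPKM with siUqcc3 and 58.7 ± 8.59 FPKM in controls (SD, n = 2 each), 31.5% of the control mean. Both siUqcc3 libraries lay far below both controls of this gene (ENSMUSG00000023015.13, mm10 chromosome 15 from 99620496 to 99651656), without passing (limma log2 difference -1.66, SE 0.70, adjusted p = 0.745). A processed pseudogene, AC148020.1, matches 488 bases of the Racgap1 transcript at 98.16% identity, and no level was listed for it. Kif23, the kinesin subunit of the same complex, stood at 18.1 and 33.99 FPKM with siUqcc3 and 30.4 and 25.6 FPKM in controls, with overlapping groups. Kif20a, a kinesin needed for cytokinesis, stood at 6.55 and 9.10 FPKM with siUqcc3 and 16.6 and 16.2 FPKM in controls. Its groups were apart, but 29.3% of its exon bases overlap Cdc23 on the opposite strand, and whether the authors counted by strand is stated in no source used here.

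Anln, which encodes the contractile ring protein anillin, stood at 19.2 and 10.7 FPKM with siUqcc3 and 30.3 and 19.9 FPKM in controls. Ect2, the exchange factor that activates RhoA at the division plane, stood at 21.1 and 35.9 FPKM with siUqcc3 and 24.8 and 17.6 FPKM in controls. Prc1, which bundles midzone microtubules, stood at 125 and 197 FPKM with siUqcc3 and 377 and 149 FPKM in controls. The groups overlapped in Ect2 and Prc1, and in Anln siUqcc3 replicate 1 lay just under the lower control. Prc1 shares 11.1% of its exon bases with Rccd1 on the opposite strand.

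Of the 3 phosphatase genes that activate Cdk1, Cdc25c lay below both controls under every scaling. It stood at 21.3 and 26.2 FPKM with siUqcc3 and 57.2 and 56.3 FPKM in controls, 41.8% of the control mean. The groups were far apart beside the spread within each (limma log2 difference -1.23, SE 0.66, adjusted p = 0.745). Its exons share 12.7% of their bases with Gm3550 on the opposite strand. Cdc25a, and Cdc25b, which restarts meiosis in mouse oocytes, lay between 1.67 and 6.98 FPKM in all 4 libraries. In both, siUqcc3 replicate 2 was the highest library and the groups overlapped.

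Regulators of the anaphase-promoting complex and of cohesin cleavage lay below both controls in 4 of 5 cases as deposited, against 30.0% of all tested genes. After scaling 1 or 2 of 5 did, against 18.5% to 20.6%. Fbxo5, which encodes the inhibitor Emi1, stood at 36.7 and 41.7 FPKM with siUqcc3 and 107 and 100.5 FPKM in controls. That is 37.7% of the control mean, with both siUqcc3 libraries far below both controls (limma log2 difference -1.39, SE 0.62, adjusted p = 0.745). After scaling the difference lay between -1.002 and -0.75. Cdc20, the activator of the complex, stood at 49.5 and 69.7 FPKM with siUqcc3 and 106 and 88.2 FPKM in controls. Sgol1, which encodes shugoshin, the protector of centromeric cohesin, stood at 69.8 and 87.8 FPKM with siUqcc3 and 114 and 94.3 FPKM in controls. Both lay below both controls as deposited, and Sgol1 stood at a difference of 0.30 under the scaling that raised it most.

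Securin and separase stood on opposite sides of the controls in siUqcc3 replicate 2. Pttg1 (values above) lay below both controls in both siUqcc3 libraries, by a log2 difference of -0.21 in replicate 1 and -1.73 in replicate 2. Espl1, which encodes separase, stood at 2.15 and 23.7 FPKM with siUqcc3 and 5.40 and 2.17 FPKM in controls. Only siUqcc3 replicate 2 was high, on 1949 implied fragments, and replicate 1 lay just under the lower control.

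Condensin genes, whose products compact mitotic chromosomes, showed the widest split between the siUqcc3 libraries by role. The median log2 difference of the 5 genes was -0.56 in siUqcc3 replicate 1 and 1.06 in siUqcc3 replicate 2. Over all tested genes these medians were -0.30 and -0.57. Smc4, an ATPase subunit, stood at 41.9 and 155 FPKM with siUqcc3 and 88.5 and 33.6 FPKM in controls. Ncapd2, a HEAT-repeat subunit, stood at 9.32 and 50.7 FPKM with siUqcc3 and 20.1 and 22.1 FPKM in controls. Ncapg, the other HEAT-repeat subunit, stood at 16.9 and 54.3 FPKM with siUqcc3 and 26.2 and 24.7 FPKM in controls. In these 3 genes siUqcc3 replicate 2 lay above both controls, and in Ncapd2 and Ncapg replicate 1 lay below both. Of all tested genes 32.0% lay above both controls in replicate 2 and 48.3% below both in replicate 1. Opposite sides of the controls were taken by the 2 siUqcc3 libraries in 21.8% of all tested genes. Ncapg shares 13.4% of its exon bases with Lcorl on the opposite strand.

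The remaining condensin genes did not follow that split. Smc2, the partner of Smc4, stood at 21.2 and 17.9 FPKM with siUqcc3, inside the control values of 44.1 and 8.58 FPKM. Ncaph, the kleisin that closes the ring, stood at 4.06 and 1.38 FPKM with siUqcc3 and 7.18 and 9.55 FPKM in controls. Ncaph lay below both controls under every scaling, on 45 and 10 implied fragments with siUqcc3.

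Levels per length differed widely between subunits of the same complex, in both groups. Securin stood above separase by 569 and 18.0 times with siUqcc3 and by 233 and 737 times in controls. Birc5 exceeded Incenp by 119.9 and 7.06 times with siUqcc3 and by 96.8 and 135 times in controls. Spc25 exceeded Spc24 by 56.5 and 268 times with siUqcc3 and by 51.1 and 30.6 times in controls. Mad2l1 exceeded Mad1l1 by 346 and 54.0 times with siUqcc3 and by 151 and 193 times in controls. In each of these pairs the same gene was the higher one in all 4 libraries, and the ratio in siUqcc3 replicate 2 lay outside the range of the other libraries.

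**Figure D5:**
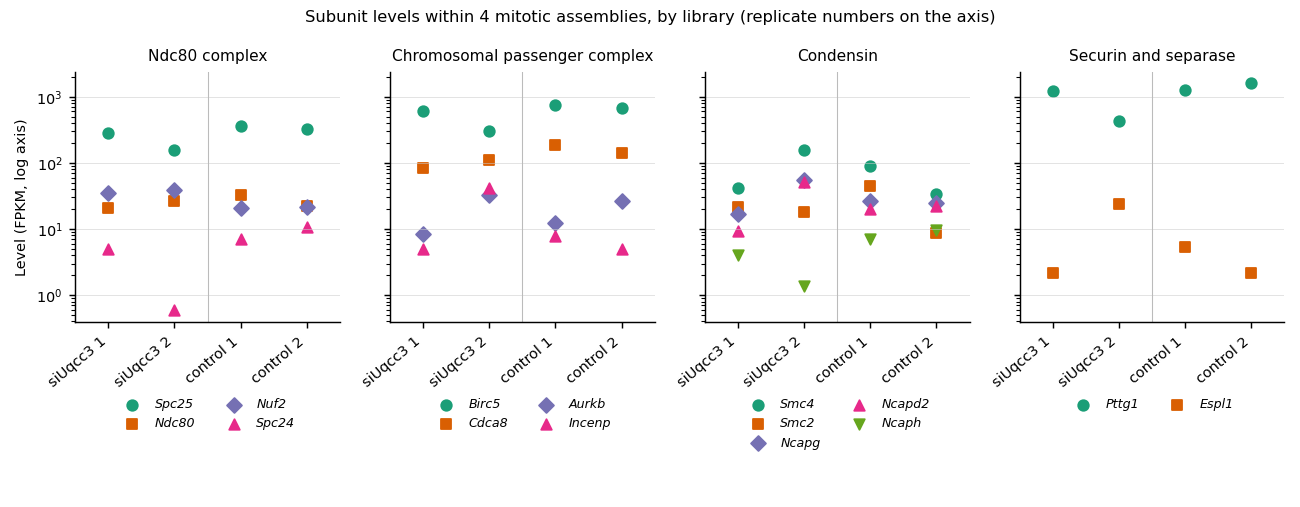
Level of each subunit (FPKM, logarithmic vertical axis) of the Ndc80 complex, the chromosomal passenger complex, condensin and the pair of securin and separase, in siUqcc3 replicates 1 and 2 and control replicates 1 and 2 (horizontal axis). Spc25 and Birc5 are the highest of their complexes in all 4 libraries, and siUqcc3 replicate 2 differs most in Spc24, Incenp and Espl1.

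Ratios between partners within a library do not depend on a scaling factor for that library. These pairs were chosen after the values were seen, from a longer list, and no test was made. Of pairs in that list not given here, the groups overlapped in some, such as Spc25 over Ndc80 and Smc4 over Smc2. In others, such as Spc25 over Nuf2, they were apart. How often pairs of any genes are apart was not counted. Racgap1 over Kif23, the subunits of centralspindlin, was 0.750 and 0.689 with siUqcc3 and 2.13 and 2.06 in controls. Nuf2 over Ndc80 was 1.68 and 1.46 with siUqcc3 and 0.630 and 0.974 in controls. Both ratios were apart between the groups, so that the partners of each pair differed unequally. Parts of Racgap1 and Ndc80 match other transcripts, as given above, and the part of these copies in the ratios was not tested. Fbxo5 over Cdc20 was 0.740 and 0.599 with siUqcc3 and 1.01 and 1.14 in controls. Bub3 over Bub1 was 5.36 and 3.15 with siUqcc3 and 8.38 and 10.3 in controls. Again neither siUqcc3 library reached the controls. Aurkc over Aurkb and Tpx2 over Aurka overlapped between the groups, the last at 1.24 and 0.528 with siUqcc3 and 1.04 and 0.601 in controls.

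The siUqcc3 libraries differed from each other more than the controls did. In siUqcc3 replicate 1, 32 of the 43 genes lay below both controls, against 48.3% of all tested genes, and 2 above, against 20.6% of all tested genes. The median log2 difference there was -0.62 over the 43 genes and -0.30 over all tested genes. In siUqcc3 replicate 2, 23 of the 43 lay below both controls, against 50.5% of all tested genes, and 13 above, against 32.0% of all tested genes. Its median was -0.31 over the 43 genes and -0.57 over all tested genes, so the counts in replicate 2 lay near those of all genes. The siUqcc3 libraries differed by over 1 on the log2 scale in 18 of the 43 genes (41.9%), and the controls in 8 (18.6%). Over all tested genes these shares were 61.02% for the siUqcc3 libraries and 29.8% for the controls. Mad2l1, Aurkb, Kif2c, Kif23, Cdc25b, Espl1, Ncapd2 and Ncapg lay on opposite sides of both controls in the 2 siUqcc3 libraries, 18.6% of the 43 genes against 21.8% of all tested genes. Without siUqcc3 replicate 2, limma called 0 of the 43 genes, and 6, all lower, reached an unadjusted p under 0.05, against 8.14% of all tested genes. Without siUqcc3 replicate 1, Bub3, Pttg1, Plk4 and Mad2l1 passed, all lower, and 4 of 43 is below the share of all tested genes that passed, 11.9%. Each of these fits has 1 siUqcc3 library, so its spread comes from the 2 controls alone and the lone library is assumed to vary like them.

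The genes were also split by TTTGAA in the promoter, with no test. As deposited, 10 of the 23 genes with the motif lay below both controls in both siUqcc3 libraries, and 7 of the 13 without it. Of all tested genes 30.0% did. These counts were not taken after scaling. Median log2 differences in siUqcc3 replicates 1 and 2 were -0.64 and -0.27 with the motif and -0.36 and -0.76 without it. Nothing about a binding factor follows from these counts.

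Other mitotic genes were taken from a further list of the anaphase-promoting complex, the kinetochore, the spindle and cytokinesis machinery, and cohesin and condensin II. Of 94 symbols listed 90 were found, the remainder being second names of genes found, and 88 were tested. In limma 0 passed, and 4 of 88, all lower, reached an unadjusted p under 0.05, against 5.96% of all tested genes. Both siUqcc3 libraries lay below both controls in 34 of the 88, against 30.0% of all tested genes, and in 20 to 27 after the 4 scalings, against 18.5% to 20.6% of all tested genes. Their median log2 difference was -0.49. By group of the 90 found, 17 of 31 kinetochore genes and 7 of 20 of the anaphase-promoting complex lay below as deposited. Counts were 8 of 23 for spindle and cytokinesis and 2 of 16 for cohesin and condensin II, against 30.0% of all tested genes. In the last group, 11 of 16 genes lay below both controls in siUqcc3 replicate 1, against 48.3% of all tested genes, and 12 of 16 above both in siUqcc3 replicate 2, against 32.0% of all tested genes. No test of that group was made.

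Ube2s, Mad2l1bp and Zwilch were among those with the smallest unadjusted p. Ube2s, which extends ubiquitin chains for the anaphase-promoting complex, stood at 47.6 and 10.19 FPKM with siUqcc3 and 104 and 153 FPKM in controls (limma log2 difference -2.44, SE 0.84, adjusted p = 0.745). Mad2l1bp, which helps remove Mad2 from the checkpoint complex, stood at 310.4 and 202 FPKM with siUqcc3 and 885 and 748 FPKM in controls. In both of these genes and in Zwilch, of the kinetochore complex that recruits dynein, both siUqcc3 libraries lay below both controls. Of genes with higher values, Kif18b, a microtubule-depolymerizing kinesin, stood at 6.19 and 35.5 FPKM with siUqcc3 and 4.20 and 1.02 FPKM in controls (limma log2 difference 2.32, SE 1.15, adjusted p = 0.745). Stag2 of cohesin and the haspin kinase gene Gsg2, with both siUqcc3 libraries above both controls, had log2 differences of 1.49 and 1.39 and did not pass. Anapc4 of the anaphase-promoting complex had a log2 difference of 1.62 that rests on siUqcc3 replicate 2 alone, at -0.069 in siUqcc3 replicate 1 and 3.31 in siUqcc3 replicate 2, and did not pass.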

How the data were processed

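Polyadenylated RNA of late 2-cell embryos was amplified as full-length cDNA from an oligo(dT) primer and read from both ends, per the labels' protocols. For each library the authors deposited the FPKM of every gene with 2 bounds around it, per the file headers. The build mm10, Cufflinks 2.2.1, Cuffdiff 2.2.1, STAR 2.7.3a, SAMtools 1.7 and Trim Galore 0.6.5 are named in the submitters' processing notes, and no source used here names the annotation release. Each table held 47511 rows, and rows of a repeated identifier were summed (50 identifiers). The upper bound lay 2 errors above the value, so the implied fragments of a gene are the inverse square of its relative error. They do not cover the spread between libraries, are too few for genes with several transcripts, and entered no test. The bounds did not follow counts alone. Tpx2 had 334 implied fragments at 61.0 FPKM in siUqcc3 replicate 1 and 1224 at 35.6 FPKM in siUqcc3 replicate 2. Amplified fragments are not independent molecules.

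Libraries were grouped by treatment label and numbered in accession order, since the labels give no replicate numbers. A gene was tested if 2 or more libraries reached 1 FPKM (12390 genes, all 43 mitotic genes among them), leaving out 2 genes with a failed estimate. In R 4.3.3, limma 3.58.1 compared log2(FPKM + 1) between the groups, with an intensity trend in the prior, two-sided, with Benjamini-Hochberg adjustment. A log2 difference is siUqcc3 minus control on this scale, which understates differences of low genes. Nothing says that libraries came from separate mice, so the spread behind the p-values is that of these libraries and may be technical. The smallest p that an exact permutation test allows for 2 libraries against 2 is 0.333. On simulated data with the spread of these libraries, 12390 genes and 200 of them changed, the test recovered 7% of 4-fold and 53% of 16-fold changes.

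Values in all libraries are given for genes averaging 10 FPKM or more in a group or with groups that do not overlap, and fit statistics for the 8 genes with the smallest p. The statistics of Nuf2 were added after its values were seen. Of the other mitotic genes, those with the smallest p in each direction are named, 4 a direction, and 1 of these is not reported here. The genes, the lists and their roles were chosen with earlier results of these data known. Exon overlaps and near-identical copies (BLAST 2.17.0, at least 95% identity over 300 bases) were found in GENCODE M21, which held 99.1% of the identifiers. Alternatives were the pseudocount, the filter, the scaling, the prior and leaving out each library.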

Additional observations from a re-analysis of the deposited data

How the results depend on the processing

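With 2 libraries a group, 4-fold differences were mostly not detectable, since limma recovered 7% of them on simulated data. Counts below and above both controls and the median of the mitotic genes depended on scaling between libraries. As deposited, 21 genes lay below both controls and 1 above. Cyclic loess gave 11 below and 3 above, quantile normalization 10 below and 3 above, median-of-ratios scaling 12 below and 3 above, and TPM 11 below and 2 above. The share of all tested genes above both controls rose too, from 8.60% as deposited to 17.6%, 16.5%, 16.4% and 13.8% in this order. The median log2 difference, -0.48 as deposited, was -0.059 with TPM and -0.036 with quantile normalization, -0.10 with median-of-ratios scaling, and reversed to 0.12 with cyclic loess, where the median of all tested genes was 0.034. The cause was not tested beyond the scaling itself.

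Leaving out 1 library at a time, 23 to 32 of the 43 genes lay below and 2 to 13 above, with medians between -0.80 and -0.31, while 41.9% to 50.5% of all tested genes lay below and 16.4% to 32.0% above. Genes past the adjusted threshold numbered 0 to 1477 over all genes, and 0 to 4 among the 43, where the upper values are those without siUqcc3 replicate 1. Over all 14 alternatives the 8 genes with the smallest p and Uqcc3 kept their direction in 126 of 126 values. The 8 genes were picked from these same libraries, and other filters and priors leave their differences unchanged. Their agreement in direction was thus largely set in advance and is no support, and the share for other genes was not counted. Without siUqcc3 replicate 1 the log2 differences of Bub3, Plk4 and Uqcc3 were -2.36, -2.24 and -3.09. Other pseudocounts, filters and priors left the count of passing genes at 0. No paired analysis was possible because the labels carry no replicate numbers, and numbers outside the labels were not used to pair libraries.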

Other observations

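Differences between libraries of the same group exceeded the deposited bounds in most mitotic genes. The bounds of the siUqcc3 libraries were apart in 36 of the 43 genes (83.7%), against 76.3% of all tested genes, and those of the controls in 29 of 43 (67.4%), against 64.2% of all tested genes.

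Over 43 genes, Spearman's rho between transcript length and the difference of siUqcc3 replicate 2 minus replicate 1 was 0.13, and it was 0.31 over 12352 tested genes with a length in GENCODE M21. For control replicate 2 minus control replicate 1 it was -0.46 over the 43 genes and -0.10 over all. For GC content and the siUqcc3 difference it was 0.33 over the 43 genes and 0.12 over all. The points share their libraries, so these values are descriptions with no test.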
